A study of Mus musculus with 6 samples.

Results

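Krüppel-like factors are zinc-finger transcription factors, and 9 genes of the family were followed here: Klf2, Klf3, Klf4, Klf5, Klf6, Klf9, Klf10, Klf13 and Klf15. They were found by gene name among the 21936 gene rows of each deposited table, and each of the 9 names matched. The study sequenced RNA of whole uteri from pregnant mice, with 3 libraries labelled Mettl3 d/d and 3 labelled Mettl3 f/f (6 in all). The females were 6 to 8 weeks old when mated with fertile males and were killed on gestational day 4, with the day of the vaginal plug counted as day 1. In the usual notation f/f means a floxed allele and d/d its deleted form of Mettl3, which encodes the catalytic subunit of the N6-methyladenosine writer. The sources used here give neither the Cre driver and the cells it reaches nor the deleted exons, the strain or any pooling of animals. Nothing says that the replicates are separate animals, so the spread behind each p-value is that of these libraries and may be technical.

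Krüppel-like factors bind GC-rich and CACCC-type DNA through C-terminal zinc fingers, while their N-terminal parts differ and recruit activators or repressors. In the mouse uterus several of them meet the ovarian hormones. Klf9 interacts with the progesterone receptor, Klf15 responds to progesterone and restrains DNA replication in the epithelium, and Klf5 in the epithelium is needed for implantation. Klf2 and Klf4 are known for their part in blood vessel endothelium, and Klf4 also for the differentiation of epithelia. Klf3, Klf9, Klf10 and Klf13 are mostly described as repressors. Klf6 and Klf10 are early response genes, and Klf10 was first described as induced by transforming growth factor beta.

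The sequence before the transcription start is shown for 4 members. Klf9 and Klf15 are shown because their d/d values lay below every f/f value, and Klf4 and Klf2 because they differed most between the d/d libraries. Sequences are from RefSeq on GRCm38.p6, up to 250 bases before the RefSeq start, ending before the first base of the GENCODE gene. Of the 9 members, 7 had an entry in the promoter table used here. Capitals mark matches on either strand to CACCC, the core letters of Krüppel-like factor sites, to the E-box CACGTG, or to the MEF2 consensus, an A/T run flanked by pyrimidine and purine ends that MEF2 factors bind. The E-box and the MEF2 consensus read the same on both strands, and the matches in capitals do not overlap.
Klf9 (chr19:23140976-23141225, plus strand): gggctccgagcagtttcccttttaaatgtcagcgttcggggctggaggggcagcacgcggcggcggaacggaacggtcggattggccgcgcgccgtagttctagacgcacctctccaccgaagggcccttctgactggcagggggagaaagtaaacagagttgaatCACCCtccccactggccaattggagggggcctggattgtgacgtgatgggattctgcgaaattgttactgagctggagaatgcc
Klf15 (chr6:90462326-90462575, plus strand): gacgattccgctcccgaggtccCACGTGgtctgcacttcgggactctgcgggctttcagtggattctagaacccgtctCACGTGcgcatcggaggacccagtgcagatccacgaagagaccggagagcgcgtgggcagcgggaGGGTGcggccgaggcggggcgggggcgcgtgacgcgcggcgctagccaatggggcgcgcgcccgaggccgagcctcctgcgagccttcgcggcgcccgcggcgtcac
Klf4 (chr4:55532476-55532725, minus strand): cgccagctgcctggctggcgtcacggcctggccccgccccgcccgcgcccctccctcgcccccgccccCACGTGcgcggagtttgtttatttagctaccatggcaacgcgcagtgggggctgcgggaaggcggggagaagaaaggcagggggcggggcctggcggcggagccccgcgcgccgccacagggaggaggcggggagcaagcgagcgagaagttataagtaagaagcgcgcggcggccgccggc
Klf2 (chr8:72318812-72319032, plus strand): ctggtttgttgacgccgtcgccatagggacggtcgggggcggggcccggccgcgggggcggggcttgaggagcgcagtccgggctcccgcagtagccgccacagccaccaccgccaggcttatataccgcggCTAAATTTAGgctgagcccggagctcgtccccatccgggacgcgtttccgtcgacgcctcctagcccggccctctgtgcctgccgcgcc

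Within 250 bases before the start, 5 of the 7 members held CACCC or its complement, as did 52.0% of all 32851 promoters in the table. Klf15 held 2 E-boxes and Klf4 and Klf6 held 1 each, against 6.02% of all promoters with at least 1. A MEF2 match was found in Klf2 and in none of the other 6 members with an entry, against 2.92% of all promoters. The CACCC-type match of Klf2 lies beyond the stretch printed. The motifs were chosen after the sequences and the expression values had been seen, and a match is a run of letters, not a measured binding site.

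All 6 libraries held values above 0 for 15978 to 16359 genes, with totals of 535043 to 625575 FPKM (fragments per unit of gene length and of library size). The f/f libraries resembled one another (Spearman correlation over genes 0.978 to 0.989), and the d/d libraries did so less (0.870 to 0.916). Replicate 1 of the d/d group correlated with d/d replicates 2 and 3 at 0.906 and 0.916 and with the f/f libraries at 0.916 to 0.921, and d/d replicates 2 and 3 correlated with the f/f libraries at 0.850 to 0.868. Replicate 1 was thus the d/d library closest to f/f. On the log2(FPKM + 1) scale the SD of a gene had a median of 0.301 in d/d and 0.126 in f/f libraries. Markers of luminal and shared epithelium, stroma, smooth muscle and endothelium were above 0 in each library, as whole uterus would hold. Of 7 gland markers 4 were listed at 0 in at least 1 library, with 1 higher and 1 lower of the 5 tested, and the blastocyst markers Cdx2 and Pou5f1 were at 0 in all 6. Smooth muscle markers summed to 1162 to 4819 FPKM in d/d and 2583 to 6096 FPKM in f/f libraries, with 2 of 10 called lower and 0 higher. Of all genes, 3.81% were called lower and 3.49% higher. Mettl3 itself was at 42.9, 30.1 and 46.5 FPKM in d/d replicates 1, 2 and 3, against 30.3, 29.8 and 26.3 FPKM in the f/f replicates. It was thus not lower in d/d (log2 fold change 0.43, limma adjusted p = 0.202), and it was higher without d/d replicate 2 (0.62, adjusted p = 0.0422, against 0.197 to 0.432 in the other alternatives). Mettl3 overlaps the protein-coding Tox4 on the other strand by 1561 bp, and without knowledge of strand their reads there cannot be told apart. Tox4 averaged 16.7 ± 1.49 FPKM in d/d and 17.7 ± 0.635 FPKM in f/f (SD, n = 3 each). Exons that remain after a deletion are still counted in a gene's value, so this does not check the labels, and d/d below means the libraries labelled d/d.

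None of the 9 genes passed the test over all genes, and 2 of them, Klf9 and Klf15, stood lowest against f/f. In limma's test on log2(FPKM + 1), adjusted by Benjamini-Hochberg over 12979 genes and called at an adjusted p under 0.05, 7.3% of all genes were called and 0 of 9 members. At an unadjusted p under 0.05 there were 4 members, Klf15, Klf9, Klf3 and Klf6, against 26.7% of all genes. The d/d and f/f values did not overlap in 6 members, 4 higher and 2 lower in d/d, against 18.1% and 17.8% of all genes (35.9% together). With 3 against 3 libraries the exact two-sided permutation test cannot go below p = 0.1. A fit that gives each genotype its own spread called 2 members, Klf9 and Klf15, against 6.47% of all genes.

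**Figure D1:**
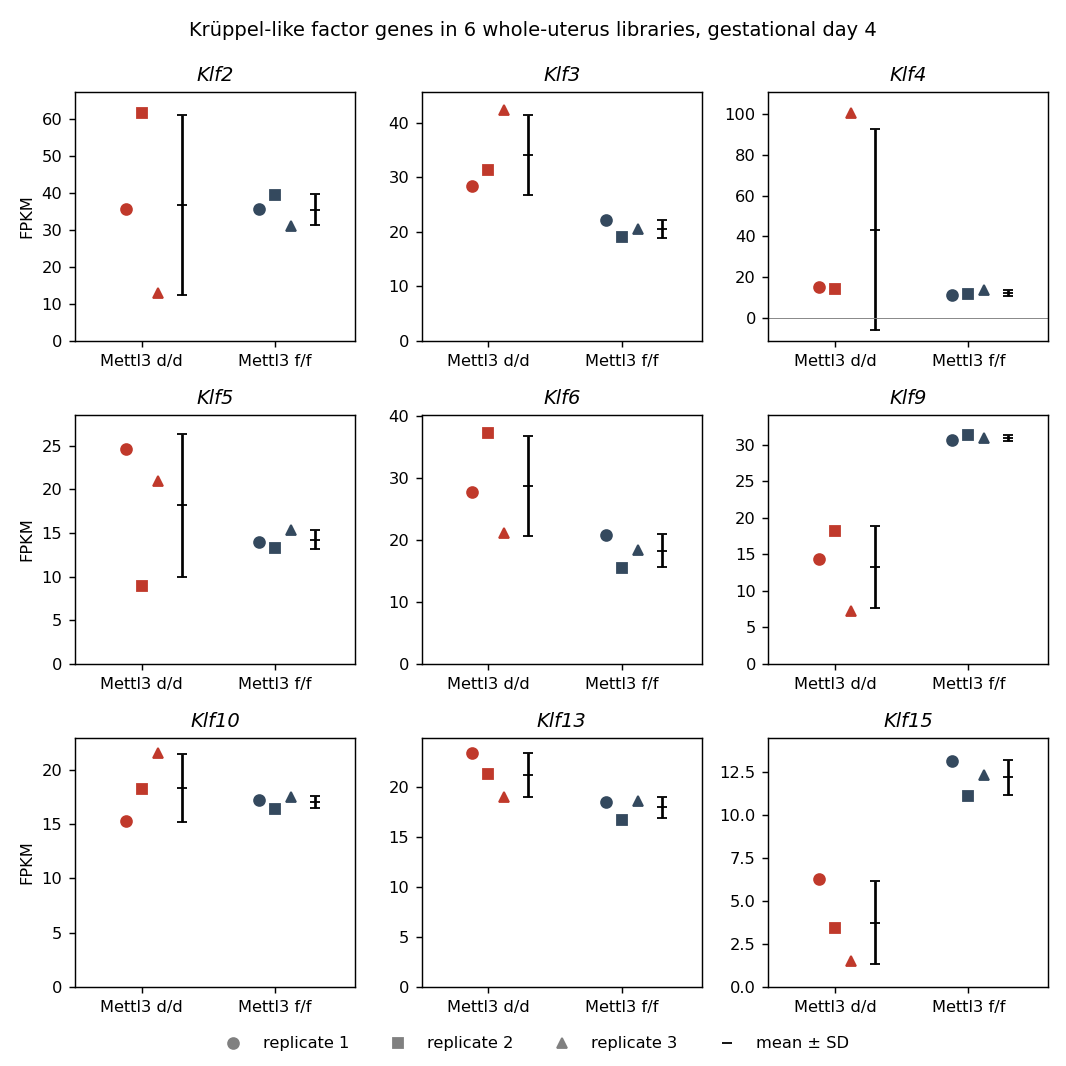
FPKM of each of the 9 genes (vertical axis, a scale of its own in each panel) in the 3 Mettl3 d/d and the 3 Mettl3 f/f libraries, with symbols for the replicates and the mean ± SD beside them. Klf9 and Klf15 lie lower in every d/d library, Klf3 lies higher in every one, and the Klf4 mean in d/d rests on replicate 3 at 100.5 FPKM.

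The hormone-linked members Klf9 and Klf15 showed the largest downward differences. Klf9 (chromosome 19, 23141226 to 23168134, GRCm38, protein coding) was at 14.3, 18.2 and 7.23 FPKM in d/d replicates 1, 2 and 3. The f/f replicates held 30.6, 31.3 and 30.9 FPKM. Every d/d library thus lay under every f/f library, and the f/f libraries hardly differed among themselves. The means were 13.3 ± 5.57 FPKM in d/d and 30.9 ± 0.352 FPKM in f/f (SD, n = 3 each), 2.33-fold apart. This is a log2 fold change of -1.25 with an SE of 0.31 and a 95% interval from -1.996 to -0.50 (adjusted p = 0.0645 by limma, exact permutation p = 0.1). Leaving out d/d replicate 2 or 3 made the call (-1.51 and -0.90, adjusted p = 0.0309 and 0.0300), where 10.5% and 7.74% of all genes were called. It was also made with a spread of its own for each genotype (adjusted p = 0.0379). It was not made in any other alternative run, among them adjusted p of 0.0813 without d/d replicate 1, 0.191 to 0.211 without any 1 f/f library and 0.105 with the replicate block.

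Klf15 (chromosome 6, 90462576 to 90475238) was at 6.29, 3.43 and 1.51 FPKM in d/d replicates 1, 2 and 3, against 13.2, 11.1 and 12.3 FPKM in f/f replicates 1, 2 and 3. Here too every d/d value lay under the lowest f/f value, and d/d replicate 3 was the lowest, as it was for Klf9. The means were 3.74 ± 2.41 FPKM in d/d and 12.2 ± 1.03 FPKM in f/f (SD, n = 3 each), 3.26-fold apart. On the log2 scale Klf15 differed by -1.61 with an SE of 0.38 and a 95% interval from -2.52 to -0.69 (adjusted p = 0.0577 by limma, exact permutation p = 0.1). Leaving out d/d replicate 1 or 3 made the call (-1.98 and -1.21, adjusted p = 0.0218 and 0.0489), where 10.2% and 7.74% of all genes were called. Median centring (-1.66, adjusted p = 0.0499, with 7.38% of all genes called) and a spread per genotype (adjusted p = 0.0367) also made the call. The other alternatives run did not, among them adjusted p of 0.0767 without d/d replicate 2, 0.176 to 0.1999 without any 1 f/f library and 0.0959 with the replicate block.

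Klf13, the close relative of Klf9 in sequence and in its repressor partners, did not share that pattern. It was at 23.4, 21.3 and 19.0 FPKM in d/d replicates 1, 2 and 3, against 18.6, 16.8 and 18.6 FPKM in f/f replicates 1, 2 and 3. The d/d values lay above the f/f values, though by little in replicate 3, and the log2 fold change was 0.23 (95% interval -0.09 to 0.54, limma adjusted p = 0.313). The ratio of Klf9 to Klf13, both per gene length, was 0.613, 0.854 and 0.381 in d/d replicates 1, 2 and 3, against 1.65, 1.87 and 1.66 in f/f replicates 1, 2 and 3. Klf9 was thus the more abundant of the pair in each f/f library and the less abundant in each d/d library. Klf13 (chromosome 7, 63886351 to 63938915, minus strand) overlaps the protein-coding E030018B13Rik on the other strand by 3683 bp, a gene listed at 0 in all 6 libraries.

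Klf4 and Klf5, both active in epithelia, varied widely among the d/d libraries. Klf4 (chromosome 4, 55527143 to 55532466, minus strand) was at 15.4, 14.3 and 100.5 FPKM in d/d replicates 1, 2 and 3, against 11.0, 11.8 and 13.7 FPKM in f/f replicates 1, 2 and 3. All d/d values lay above the f/f values, but replicates 1 and 2 by little and replicate 3 by far. Klf4 had a log2 fold change of 1.16 with an SE of 0.72 and a 95% interval from -0.58 to 2.91 (adjusted p = 0.349 by limma), and without d/d replicate 3 it was 0.27 (adjusted p = 0.248). Its SD on the log2 scale was 1.55 in d/d, larger than that of 97.6% of the genes tested, and 0.145 in f/f.

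Klf5 (chromosome 14, 99298691 to 99315036) was at 24.6, 8.95 and 20.9 FPKM in d/d replicates 1, 2 and 3, against 14.0, 13.3 and 15.4 FPKM in f/f replicates 1, 2 and 3. Replicates 1 and 3 of d/d lay above all f/f libraries and replicate 2 lay below them. Its log2 fold change of 0.22 had a 95% interval from -0.64 to 1.08 (adjusted p = 0.723 by limma). Leaving out d/d replicate 2 made the call (0.64, adjusted p = 0.0476), where 10.5% of all genes were called. Leaving out d/d replicate 1 turned the sign (-0.040, adjusted p = 0.948). The summed markers of luminal and shared epithelium were, as Klf5 was, above the f/f range in d/d replicates 1 and 3 and below it in replicate 2. Their sum was 2406, 994 and 3866 FPKM in d/d replicates 1, 2 and 3, and 1388, 1367 and 1555 FPKM in f/f replicates 1, 2 and 3. Of these 14 markers 3 were called higher and 0 lower in d/d, with none at 0, where 3.49% of all genes were called higher. All d/d values lay above all f/f values in 5 of them, where 18.1% of all genes did so. In 2 of them, Cldn3 and Lpar3, all d/d values lay below all f/f values, against 17.8% of all genes. The part of these markers in the values of Klf4 and Klf5 was not tested. In whole tissue, more or fewer cells of a type and more or less RNA in each cell cannot be told apart.

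Klf2, which blood flow induces in endothelium, had the highest mean of the 9 in f/f and no steady direction in d/d. Klf2 (chromosome 8, 72319033 to 72321656) was at 35.7, 61.7 and 12.9 FPKM in d/d replicates 1, 2 and 3, against 35.8, 39.5 and 31.1 FPKM in f/f replicates 1, 2 and 3. Replicate 2 of d/d lay above the f/f range, replicate 1 within it and replicate 3 below it. Klf2 had a log2 fold change of -0.19 with an SE of 0.52 and a 95% interval from -1.45 to 1.07 (adjusted p = 0.844 by limma), and it turned to 0.40 without d/d replicate 3. The endothelial markers summed to 396, 472 and 263 FPKM in d/d replicates 1, 2 and 3, against 620, 710 and 454 FPKM in f/f replicates 1, 2 and 3. Of these 10 markers 1 was called lower and 0 higher, with none at 0, where 3.81% of all genes were called lower. All d/d values lay below all f/f values in 7 of them and above in 0, where 17.8% of all genes lay below. An unadjusted limma p under 0.05 was reached by 7, against 26.7% of all genes. Over the 10 markers the log2 fold changes had a median of -0.74. The lowest sum of these markers was in d/d replicate 3, where Klf2 was lowest, and their part in the Klf2 values was not tested.

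Klf3 and Klf6 stood higher in each d/d library without passing the test. Klf3, a repressor that works through the corepressor CtBP, was at 28.4, 31.4 and 42.3 FPKM in d/d replicates 1, 2 and 3, against 22.2, 19.0 and 20.5 FPKM in f/f replicates 1, 2 and 3. The lowest d/d value lay above the highest f/f value, and the means were 1.66-fold apart. Its log2 fold change of 0.68 had an SE of 0.17 and a 95% interval from 0.26 to 1.11 (adjusted p = 0.0689 by limma, exact permutation p = 0.1). Without d/d replicate 1 it was 0.80 and just passed (adjusted p = 0.0499), where 10.2% of all genes were called, and in the other alternatives its adjusted p was 0.0607 to 0.238. Klf3 (chromosome 5, 64803388 to 64832901) overlaps 2 annotated noncoding or unclassified transcripts, Gm20033 on the other strand by 730 bp and C230096K16Rik on the same strand by 1722 bp, neither of them a row of the tables used here.

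Klf6, induced early after injury in many tissues (chromosome 13, 5861482 to 5870394), was at 27.7, 37.2 and 21.1 FPKM in d/d replicates 1, 2 and 3. The f/f replicates held 20.9, 15.6 and 18.3 FPKM. The groups did not overlap, though d/d replicate 3 and f/f replicate 1 lay side by side. Its log2 fold change of 0.60 had an SE of 0.23 and a 95% interval from 0.05 to 1.15 (adjusted p = 0.159 by limma). Macrophage markers were highest in the library where Klf6 and Klf2 were highest: their sum was 1113, 3690 and 539.5 FPKM in d/d replicates 1, 2 and 3, against 521, 430 and 396 FPKM in f/f replicates 1, 2 and 3. Of these 10 markers 1 was called higher and 0 lower, with none at 0, where 3.49% of all genes were called higher. Neutrophil markers summed to 28.6, 1132 and 29.1 FPKM in d/d replicates 1, 2 and 3, against 9.50, 6.58 and 13.3 FPKM in f/f replicates 1, 2 and 3. The sum in d/d replicate 2 rests mostly on S100a8 and S100a9, at 406 and 560 FPKM there. Ly6g and Mpo were instead highest in d/d replicate 3, at 24.96 and 1.625 FPKM. Of those 10 markers 5 were tested with 0 called by limma (1 at an unadjusted p under 0.05), and Elane was at 0 in all libraries. Among all genes 7.3% were called and 26.7% had an unadjusted p under 0.05. The part of these cells in the values of Klf6 and Klf2 was not tested.

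Klf10, which transforming growth factor beta induces, had the smallest log2 fold change of the 9. It (chromosome 15, 38291463 to 38300706, minus strand) was at 15.3, 18.2 and 21.6 FPKM in d/d replicates 1, 2 and 3, against 17.2, 16.4 and 17.5 FPKM in f/f replicates 1, 2 and 3. The d/d values spanned the f/f range on both sides. A log2 fold change of 0.09 had a 95% interval from -0.28 to 0.46 (adjusted p = 0.741 by limma). Its sign turned when all libraries were rescaled to the same total (-0.008) and without d/d replicate 3 (-0.027).

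**Figure D2:**
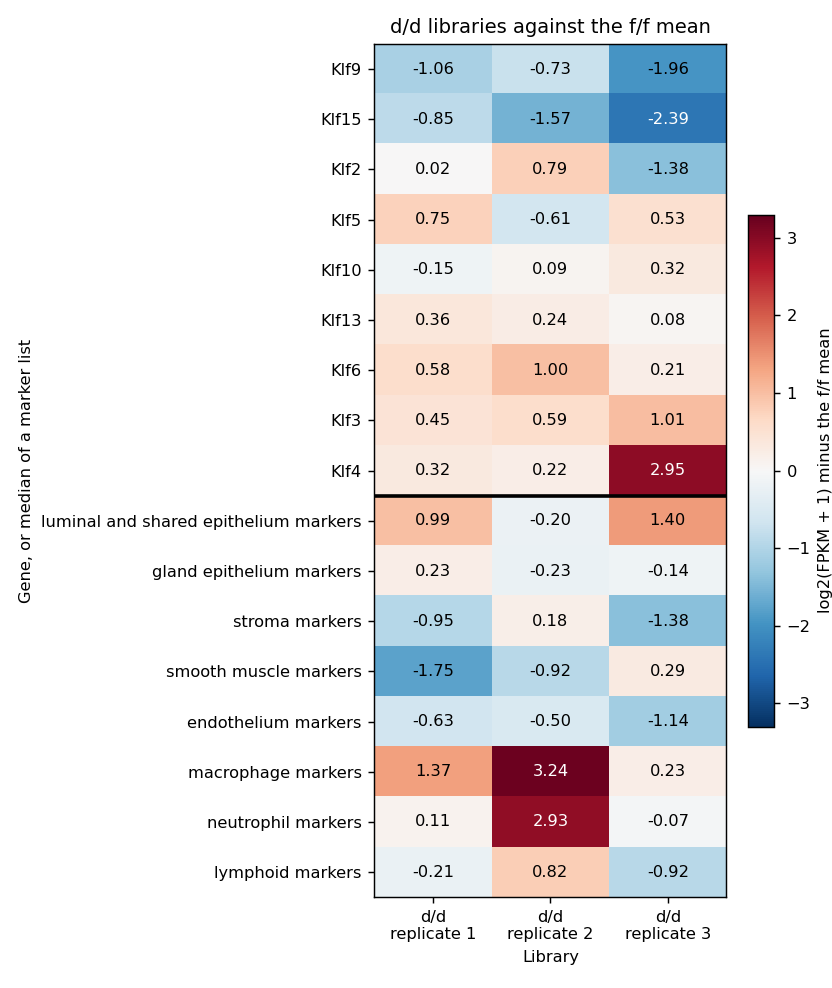
Each cell gives log2(FPKM + 1) in a d/d library (columns) minus the f/f mean, for the 9 genes and, under the black line, as the median over each list of cell type markers. Klf9 and Klf15 are below 0 in all 3 libraries and lowest in replicate 3, Klf4 is highest there at 2.95, and replicate 2 stands out for macrophage (3.24) and neutrophil (2.93) markers.

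The d/d libraries differed from f/f in different ways. In d/d replicate 3, Klf4 and Klf3 differed from the f/f mean by 2.95 and 1.01 on the log2 scale, while Klf15, Klf9 and Klf2 differed by -2.39, -1.96 and -1.38. In d/d replicate 2, Klf6 and Klf2 stood highest against the f/f mean, by 0.999 and 0.79, and Klf15 and Klf9 differed by -1.57 and -0.73. In d/d replicate 1 the differences ran from -1.06 for Klf9 to 0.75 for Klf5. Klf9 and Klf15 were the only members below the f/f mean in all 3 d/d libraries, and Klf3, Klf4, Klf6 and Klf13 were above it in all 3. Stromal markers summed to 2095, 4863 and 3502 FPKM in d/d replicates 1, 2 and 3, against 3908, 3994 and 3544 FPKM in f/f replicates 1, 2 and 3. The sum in d/d replicate 2 rests on matrix genes, with the proteoglycan gene Dcn at 1178 FPKM there, against 436 to 566 FPKM in f/f. Of these 12 stromal markers 3 were called lower and 0 higher, with none at 0, where 3.81% of all genes were called lower. Their median log2 fold change was -0.57, and 5 had all d/d values below f/f, against 17.8% of all genes. The 3 that fell were the transcription factor genes Hoxa10, Hoxa11 and Hand2. Hoxa10 fell to 56.4, 66.6 and 45.3 FPKM in d/d replicates 1, 2 and 3, against 279, 235 and 243 FPKM in f/f replicates 1, 2 and 3 (log2 fold change -2.16, limma adjusted p = 0.00608). The part of stromal cells in the values of Klf9 and Klf15 was not tested.

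The order of levels per gene length differed between the genotypes. In f/f, Klf2 and Klf9 led at means of 35.5 and 30.9 FPKM, with overlapping ranges. Klf3, Klf6, Klf13 and Klf10 followed at 20.6, 18.3, 18.0 and 17.0 FPKM, each overlapping the next of these 4 in range. Klf5 at 14.2 FPKM overlapped neither neighbour, and last came Klf15 and Klf4, both at 12.2 FPKM with overlapping ranges. In d/d, Klf4 had the highest mean at 43.4 FPKM, which rests on replicate 3, and Klf9 and Klf15 were the last 2 at 13.3 and 3.74 FPKM. Ranges in d/d overlapped between all neighbours in that order except Klf9 and Klf15.

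Together the 9 genes summed to 191, 215 and 247 FPKM in d/d replicates 1, 2 and 3, against 183, 175 and 178 FPKM in f/f replicates 1, 2 and 3. The sums did not overlap (exact permutation p = 0.1, two-sided, the smallest that 3 against 3 allow), and their means were 1.22-fold apart. Klf9 and Klf15 made up 10.8%, 10.1% and 3.54% of the sum in d/d replicates 1, 2 and 3, against 23.9%, 24.3% and 24.2% in f/f replicates 1, 2 and 3. Klf4 alone made up 40.7% of it in d/d replicate 3, against 8.07% and 6.64% in d/d replicates 1 and 2 and 6.02% to 7.66% in f/f libraries. That the sums did not overlap thus rests on Klf4 in d/d replicate 3.

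**Figure D3:**
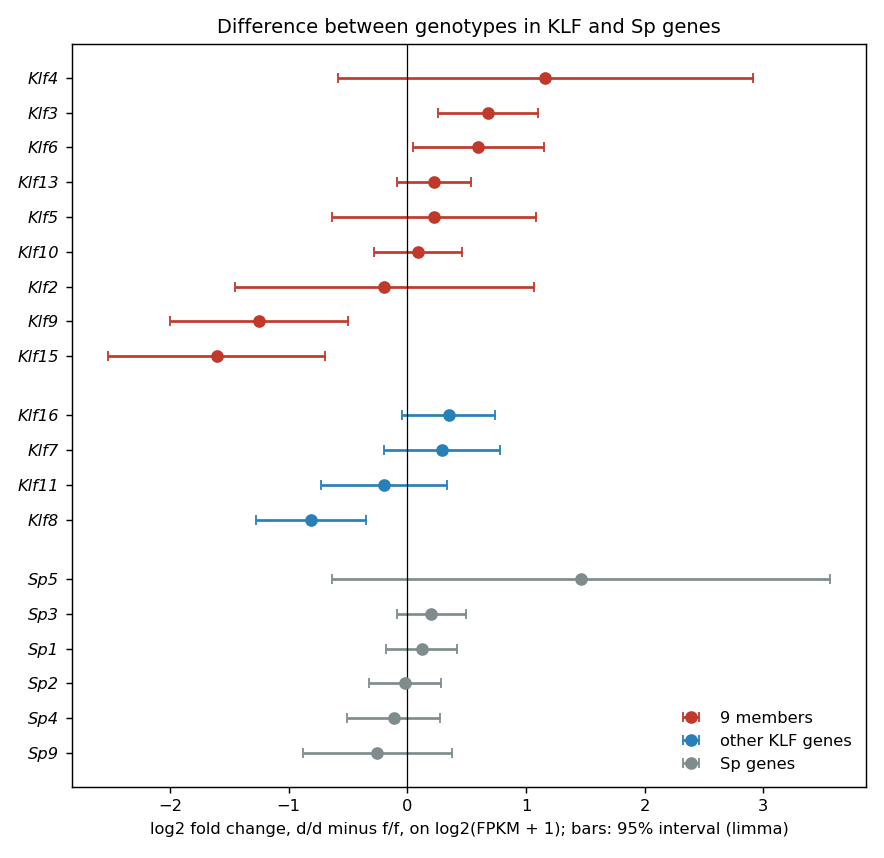
Log2 fold change (d/d minus f/f, on log2(FPKM + 1)) with the 95% interval from limma, for the 9 genes and for the other tested Krüppel-like and Sp genes. The intervals of Klf9, Klf15 and Klf8 lie below 0 and those of Klf3 and Klf6 above it, and none of these genes passed the test over all genes.

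The other family members gave no calls. There were 8 further Krüppel-like genes with a row, 4 of them tested, and 0 were called by limma (1 at an unadjusted p under 0.05). Over all genes, 7.3% were called and 26.7% had an unadjusted p under 0.05. With so few genes tested, 0 calls do not set the family apart from that share. Their median log2 fold change was 0.05, where that of the 9 members was 0.22 and that of all genes tested 0.02. The gene with the lowest p was Klf8, a repressor that also uses CtBP, at 1.04, 0.567 and 1.15 FPKM in d/d replicates 1, 2 and 3 against 2.33, 2.13 and 2.56 FPKM in f/f replicates 1, 2 and 3. Its d/d values all lay below f/f (log2 fold change -0.81, adjusted p = 0.0569). Of the 9 Sp genes, which share the zinc-finger domain, 6 were tested and 0 called (0 also at an unadjusted p under 0.05, median 0.05). The same shares over all genes stand beside these counts. Sp1 and Sp3, the widely expressed members, averaged 12.9 ± 0.836 and 28.4 ± 2.85 FPKM in d/d and 11.8 ± 0.692 and 24.4 ± 0.617 FPKM in f/f (SD, n = 3 each).

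Genes through which Krüppel-like factors act or are degraded also gave no calls. Of 17 cofactor and ubiquitin ligase genes all were tested and 0 were called by limma (3 at an unadjusted p under 0.05), with a median log2 fold change of 0.01. Among all genes, 7.3% were called and 26.7% had an unadjusted p under 0.05, so these counts do not set the list apart. The members with the lowest p were the ubiquitin ligase genes Smurf1 and Itch, with log2 fold changes of 0.51 and 0.36, and the acetyltransferase gene Kat2b at -0.46 (adjusted p = 0.0880, 0.125 and 0.116). Ctbp2, which encodes a corepressor bound by Klf3, averaged 45.3 ± 10.5 FPKM in d/d and 32.6 ± 3.88 FPKM in f/f (SD, n = 3 each, adjusted p = 0.217).

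Upstream inputs were described in the same way, where 7.3% of all genes were called and 26.7% had an unadjusted p under 0.05. In lists this short, 0 calls are close to that share. Among 7 genes of the ERK5 and MEF2 route, which drives Klf2 and Klf4 in endothelium, 0 were called (2 at an unadjusted p under 0.05, median log2 fold change -0.23). Mef2a was at 20.6, 31.3 and 16.1 FPKM in d/d replicates 1, 2 and 3, against 48.9, 42.5 and 42.6 FPKM in f/f replicates 1, 2 and 3. Its groups did not overlap (log2 fold change -0.995, limma adjusted p = 0.0612). Among 9 genes of transforming growth factor beta signalling, the input of Klf10, 0 were called (3 at an unadjusted p under 0.05, median 0.33). The receptor gene Tgfbr1 averaged 17.1 ± 5.30 FPKM in d/d and 8.62 ± 0.0671 FPKM in f/f (SD, n = 3 each, adjusted p = 0.0760). Among 6 steroid receptor and coactivator genes 0 were called (1 at an unadjusted p under 0.05, median 0.09), and Pgr, the partner of Klf9, differed by 0.36 on the log2 scale (adjusted p = 0.553). The lowest p was that of the coactivator gene Ncoa3, at 18.4, 17.7 and 17.1 FPKM in d/d replicates 1, 2 and 3 against 13.3, 11.1 and 9.66 FPKM in f/f replicates 1, 2 and 3. Its groups did not overlap (log2 fold change 0.61, limma adjusted p = 0.0614).

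Genes that glucocorticoid or progesterone receptors induce, the class to which Klf9 and Klf15 belong, included 2 calls, both downward. Of 10 tested, 2 fell, 0 rose and 8 did not pass. The d/d values of 7 lay below all f/f values and those of 1 above them, with a median log2 fold change of -1.10 against 0.02 over all genes. For lower calls the share over all genes was 3.81%. Over all genes, 17.8% had all d/d values below f/f and 18.1% had them all above. Zbtb16, a zinc-finger repressor gene, fell to 1.74, 0.485 and 0.0741 FPKM in d/d replicates 1, 2 and 3, against 8.27, 8.10 and 10.4 FPKM in f/f replicates 1, 2 and 3 (log2 fold change -2.59, limma adjusted p = 0.0184). Fkbp5, which encodes a co-chaperone of steroid receptors, fell to 6.75, 7.31 and 3.67 FPKM in d/d replicates 1, 2 and 3, against 14.1, 16.0 and 14.1 FPKM in f/f replicates 1, 2 and 3 (-1.23, adjusted p = 0.0382). Like Klf9 and Klf15, both were lowest in d/d replicate 3. The clock gene Per1 differed by -1.41 without passing (limma adjusted p = 0.0631) and was also lowest in d/d replicate 3. Mt2 differed by -3.08 without passing (limma adjusted p = 0.0677) and was lowest in d/d replicate 2, at 75.6 FPKM. In d/d replicates 1 and 3 Mt2 was at 701 and 376 FPKM, against 1891 to 2662 FPKM in f/f. Both calls were lost without any 1 of the f/f libraries (adjusted p 0.0825 to 0.110 for Zbtb16 and 0.131 to 0.163 for Fkbp5), and that of Fkbp5 with no filter on low values (0.0601).

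**Figure D4:**
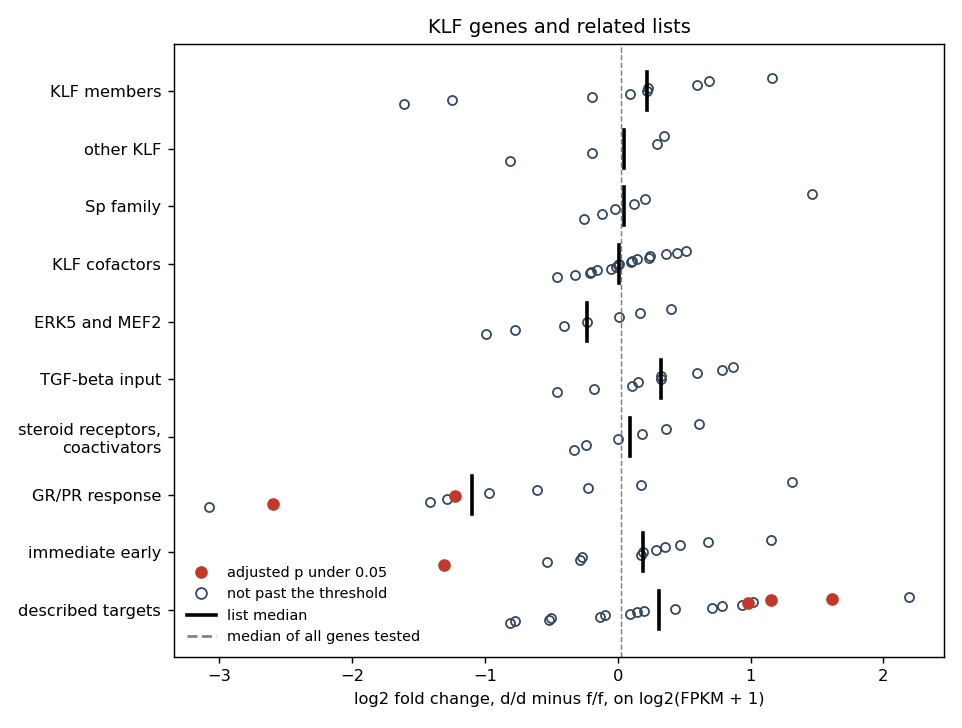
Log2 fold change (d/d minus f/f, on log2(FPKM + 1)) of each tested gene in the 9 members and 9 related lists, with filled points for adjusted p under 0.05, a bar at each list's median and a dashed line at the median of all genes tested (0.02). The list of glucocorticoid and progesterone receptor responses has the lowest median, at -1.10, and no member of the family is filled.

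Immediate early genes, with which Klf2, Klf4, Klf6 and Klf10 share rapid induction, showed 1 call. Of 11 tested, 1 fell, 0 rose and 10 did not pass, with a median log2 fold change of 0.19, where 3.81% of all genes were called lower. Myc, the growth regulator gene, fell to 28.7, 32.9 and 25.9 FPKM in d/d replicates 1, 2 and 3, against 75.4, 64.2 and 82.1 FPKM in f/f replicates 1, 2 and 3. Its highest d/d value lay well under its lowest f/f value, and it differed by -1.31 on the log2 scale with an SE of 0.15 (adjusted p = 0.0116 by limma). Without any 1 f/f library its adjusted p was 0.0623 to 0.0867. Junb, a subunit gene of the AP-1 factor, differed by 1.15 and did not pass (adjusted p = 0.114).

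Among genes described elsewhere as targets of Krüppel-like factors, 3 of 18 tested rose, 0 fell and 15 did not pass, where 3.49% of all genes were called higher. The list mixes targets that are activated and repressed, in other tissues, and had a median log2 fold change of 0.31. Cdkn1a, the cell cycle inhibitor gene that Klf4 and Klf6 activate, rose to 20.4, 53.8 and 32.5 FPKM in d/d replicates 1, 2 and 3, against 10.5, 10.5 and 9.26 FPKM in f/f replicates 1, 2 and 3 (1.62, limma adjusted p = 0.0408). It was highest in d/d replicate 2, where Klf6 was highest and Klf4 lowest of the d/d libraries. Gpt, an alanine aminotransferase gene that Klf15 raises in liver and muscle, rose by 1.15 on the log2 scale (adjusted p = 0.0388), although Klf15 stood lower in every d/d library. Pdgfa, a growth factor gene that Klf5 raises in smooth muscle, rose by 0.98 (adjusted p = 0.0418). All 3 calls were lost without any 1 f/f library, with adjusted p of 0.145 to 0.156 for Cdkn1a, 0.136 to 0.161 for Gpt and 0.111 to 0.171 for Pdgfa. With no filter on low values they missed it as well (0.0632, 0.0632 and 0.0594). Cdkn1a also missed the threshold without d/d replicate 3 (0.0711), and Pdgfa without d/d replicates 1 and 2 (0.0638 and 0.0557). Lgals3, which Klf3 represses in mouse cells, was at 117, 286 and 53.7 FPKM in d/d replicates 1, 2 and 3, against 23.8, 22.8 and 31.6 FPKM in f/f replicates 1, 2 and 3. It did not pass (log2 fold change 2.196, adjusted p = 0.0714), and its highest value was in the library with the highest macrophage markers, whose part in it was not tested.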

How the data were processed

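Total RNA of whole uterus was sequenced in 6 libraries with an Illumina TruSeq kit, per the labels' protocols. The authors deposited 1 table per library with a value per gene, taken here as FPKM because the values are decimals, their totals differ and Cufflinks writes FPKM, while the headers name no unit. HISAT2 2.2.1 and Cufflinks 2.2.1, and the builds mm9 and mm10, are listed per the submitters' processing notes. The sources used here do not say what each build was used for, which annotation was taken or whether strand was used. Absolute depth is unknown, and the steps between low values gave relative depths of 0.93 to 1.01 against f/f replicate 1. The highest row was kept where rows shared a symbol (36 dropped). Genes at 1 FPKM or more in at least 3 libraries (12979) entered a two-sided limma fit of genotype to log2(FPKM + 1) with an intensity trend (limma 3.58.1, R 4.3.3). This scale understates changes of low genes. The fit was run on simulated data to check only the sign and size of the log2 fold changes. This does not check how many calls in these libraries are false. Permutation tests used SciPy 1.17.1. Positions are from GENCODE M21 (GRCm38). The members and lists were chosen with earlier results of these data known. Named beside the members were the called genes of each related list and its lowest p-values, chosen by that rule. Genes chosen outside it are the cell type markers, the transcripts that overlap Klf3, Klf13 or Mettl3, and Klf1, Klf12, Klf14 and Klf17, which were not tested. The rule for genes of most similar profile applied only to called members, so it named none. Alternatives were the pseudocount, the filter, 3 scalings, 2 treatments of the spread, a replicate block and leaving out each library.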

Additional observations from a re-analysis of the deposited data

How the results depend on the processing

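The 947 genes called over all genes became 0 to 1367 when 1 library was left out. Leaving out f/f replicates 1, 2 and 3 gave 0 (with 2292 genes past an unadjusted 0.05), 30 and 111 calls, and leaving out d/d replicates 1, 2 and 3 gave 1319, 1367 and 1005. The 0 members called became 0 to 2 in the same way, 1 with median centring and 2 with a spread per genotype. The 6 called genes of the related lists became 0 to 12 when 1 library was left out, and 3 with no filter on low values. Under other scalings Gpt and Pdgfa missed the threshold when rescaled to the same total (adjusted p = 0.0642 and 0.0638) or scaled by the upper quartile (0.0504 and 0.0526), and Pdgfa did so with a spread per genotype (0.0825). The sum of the 9 members, d/d over f/f, was 1.13 to 1.29 with 1 library left out.

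With 1 library left out, the log2 fold change was -0.68 to 0.40 for Klf2, 0.52 to 0.80 for Klf3, 0.27 to 1.64 for Klf4, -0.040 to 0.64 for Klf5, 0.40 to 0.79 for Klf6, -1.51 to -0.90 for Klf9, -0.027 to 0.21 for Klf10, 0.16 to 0.30 for Klf13 and -1.98 to -1.21 for Klf15. Klf10 was at -0.008 rescaled to the same total. Klf15 was called with median centring (-1.66) and, like Klf9 (-1.25), with a spread per genotype (-1.61). The cause of these changes was not tested. Over the members, the smaller pseudocount, no filter, the other scalings and no intensity trend changed no other call or direction.

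Equal replicate numbers showed no sign of pairing. Deviations from the group means correlated at -0.02, 0.02 and -0.02 for numbers 1, 2 and 3, and d/d replicate 1 correlated best with f/f replicate 3 (0.12). Such correlations with 3 libraries per genotype cannot exclude a pairing. With the replicate block 100 genes were called, with 0 members (3056 genes at an unadjusted p under 0.05) and 0 genes of the related lists. The files give no fragment numbers, so no counting interval could be given for low values such as that of Klf15 in d/d replicate 3.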

Other observations

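Some family genes at low levels also differed between the libraries. Sp5, a Wnt-responsive gene, was at 6.56, 12.2 and 0.194 FPKM in d/d replicates 1, 2 and 3, against 0.453, 0.569 and 1.501 FPKM in f/f replicates 1, 2 and 3. It was thus above the f/f range in d/d replicates 1 and 2 and below it in d/d replicate 3 (log2 fold change 1.46, limma adjusted p = 0.329). Klf12, a repressor gene under the filter on low values, was at 0.449, 0.235 and 0.148 FPKM in d/d replicates 1, 2 and 3, against 1.08, 0.853 and 0.851 FPKM in f/f replicates 1, 2 and 3. It was not tested, and like Klf8, Klf9 and Klf15 it had all d/d values below all f/f values. Klf1, an erythroid gene, stood at 0.130 to 0.186 FPKM in d/d and 0.174 to 0.302 FPKM in f/f libraries, while Klf14 and Klf17 were listed at 0 in all d/d libraries and at no more than 0.0776 FPKM in f/f libraries.

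The ratio of Klf4 to Klf5, both per gene length, was 0.627, 1.59 and 4.80 in d/d replicates 1, 2 and 3, against 0.789, 0.889 and 0.886 in f/f replicates 1, 2 and 3. The epithelial pair thus kept a near-constant ratio in f/f, with Klf5 the more abundant, and Klf4 was the more abundant in d/d replicates 2 and 3.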
